A study of Mus musculus with 8 samples.

Results

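The MHC class II genes examined here were 8 genes chosen by symbol: H2-Aa, H2-Ab1, H2-Eb1, H2-DMa, H2-DMb1, H2-DMb2, Cd74 and Ciita. All 8 were found among the 35458 mouse genes to which transcripts of the whole tumors were assigned, and all 8 were among the 15207 genes that kept enough reads to be tested. Total RNA of N2A tumors was sequenced to ask how the compound SR59230A changes the tumor microenvironment (TME) of neuroblastoma (NB). N2A (Neuro-2a) is 1 mouse neuroblastoma line that is syngeneic with A/J mice, so the hosts kept their own immune system. The SR59230A group held 4 tumors (numbered 1 to 4) from female A/JCr mice, bought at 4 weeks of age, that carried 1000000 N2A cells under the skin and received SR59230A at 10 mg/kg into the peritoneum, in repeated daily doses. The vehicle group held 4 tumors (numbered 0 to 3) from the same kind of host and graft, with physiological solution in place of the drug. Treatment began once a tumor could be felt, and the methods have mice sacrificed after 8 days of it. Nothing in the labels says that each tumor came from its own mouse, so the spread between tumors may include technical spread.

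MHC class II molecules are αβ pairs that hold peptides from the endosome at the cell surface, where CD4+ T cells read them. In the mouse they are I-A, made of H2-Aa and H2-Ab1, and I-E, whose β chain is H2-Eb1. Cd74, the invariant chain, escorts the new pairs to the endosome and fills their groove, H2-DM (H2-DMa with H2-DMb1 or H2-DMb2) exchanges its last fragment for a peptide, and Ciita is the transactivator that switches the whole set on. Dendritic cells, B cells and macrophages carry class II constitutively or after activation, and interferon-γ induces Ciita in many other cells.

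The promoters are shown first because the shared elements are what ties these genes to Ciita, which binds no DNA itself and works through factors on the X and Y boxes. RefSeq windows of GRCm38.p6, 250 bases before to 50 bases after a start site, were at hand for 5 of the 8 genes (H2-Aa, H2-Eb1, H2-DMa, H2-DMb1 and H2-DMb2). Windows of H2-Ab1, Cd74 and Ciita were not used here. The motif TGATTGG, the core of a Y box and an inverted CCAAT element of the kind NF-Y binds, was present on either strand in 4 of these 5 genes, all but H2-DMa, against 7.82% of 32851 windows. AACNGATGATG, a stretch of 11 bases within the X box, was taken from these sequences as the one that H2-Eb1, H2-DMb1 and H2-DMb2 share upstream of the Y box, so its presence in these 3 genes is no result. It was found in 0.0609% of windows. Each line gives 63 bases, 5′ to 3′ on the strand of the gene, with both motifs in capitals.
H2-Aa (chr17:34287859-34287921, minus strand): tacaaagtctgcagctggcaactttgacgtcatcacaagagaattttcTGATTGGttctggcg
H2-Eb1 (chr17:34305758-34305820, plus strand): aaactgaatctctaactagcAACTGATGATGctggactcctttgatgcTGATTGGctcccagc
H2-DMb2 (chr17:34145109-34145171, plus strand): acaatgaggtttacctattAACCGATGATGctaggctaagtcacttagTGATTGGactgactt
The capitals of H2-Eb1 are 17 bases apart and those of H2-DMb2 are 18 bases apart. The same stretch of H2-DMb1, which lies in an annotated first exon and is not printed, had 18 bases between its motifs and the same base as H2-DMb2 at 56 of 63 positions. The stretch of H2-Aa had the same base as H2-Eb1 at 17 of 63 positions and does not hold the exact string of the second motif. That string was taken from the 3 other genes, so its absence does not show that H2-Aa lacks an X box. A match is a string of letters and does not show that a factor was bound.

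Each tumor had 23484190 to 44045575 estimated reads, of which the 8 class II genes together took 38.8 to 75.2 of every 1000000. Libraries differed in content as well as in depth, and the part of treatment or of handling in this was not tested. A satellite-like gene model, Gm10800, took 6.38% of reads in vehicle 0, 4.70% in vehicle 3 and 3.44% in SR59230A 4, and at most 0.373% in the other 5 tumors. SR59230A 3 had the fewest reads, and the gene Noct took 17.0% of them, against 7.61% to 10.4% in the other tumors. Its share of retained-intron reads was 4.20%, against 2.48% to 3.76% in the others. Scaling factors (TMM) were 1.07 to 1.12 in tumors 1 and 2 of both groups, and 0.879 to 0.954 in the other 4. The 8 skeletal muscle markers summed to 2264 CPM in SR59230A 1, 192 CPM in SR59230A 2 and 12.7 to 35.3 CPM in the other 6 tumors. Neuroblastoma markers (10 of 10 tested) were present in every tumor, at a summed 594 to 801 CPM in SR59230A tumors and 768 to 1080 CPM in vehicle tumors. All 10 had a log2 fold change, SR59230A over vehicle, below 0, with a median of -0.41. By edgeR 4 of them had an unadjusted p under 0.05 and 0 were called. CPM here is the number of reads of a gene in every 1000000 reads of tested genes after TMM scaling. It compares tumors for 1 gene, while TPM, which corrects for transcript length, compares genes.

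By level, as reads were assigned to reference transcripts, Cd74 stood far above the other class II genes. Its mean over the 8 tumors was 51.1 TPM, above 89.6% of 21743 protein-coding genes. H2-Aa followed with 7.73 TPM, H2-Ab1 with 5.94 TPM, H2-DMa with 5.28 TPM and H2-Eb1 with 3.75 TPM. These 4 genes lay close to the middle of the protein-coding genes, and their ranges over tumors overlapped, so their order is not firm. H2-DMb2 averaged 2.12 TPM and H2-DMb1 0.954 TPM. Ciita was the lowest at 0.170 TPM, above 31.4% of protein-coding genes, with a range of 0.060 to 0.289 TPM that did not reach that of any other class II gene.

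The question put to these genes was whether their transcripts changed in tumors treated with SR59230A. No class II gene was called different (0 of 8) by edgeR's quasi-likelihood test. A call needed an adjusted p below 0.05 and a log2 fold change of 0.5 or more in either direction. The background was also empty: 0% of the 15207 genes tested were called, although 706 genes (4.64%) had an unadjusted p under 0.05, among them none of the 8. DESeq2 called 37 of 18395 genes (0.201%), again no class II gene. Of the 8 genes, 3 had a log2 fold change above 0 (H2-Aa, H2-Eb1 and Cd74) and 5 one below 0, against 49.6% above 0 among all genes. Their median log2 fold change was -0.06, beside -0.00 for all genes tested. The SR59230A and vehicle tumors overlapped for every class II gene, as they did for all but 2.61% of genes tested. Exact two-sided permutation tests of log2 CPM over 70 assignments gave p = 0.400 to 0.886 for the 8 genes, where the smallest possible p is 0.0286.

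**Figure D1:**
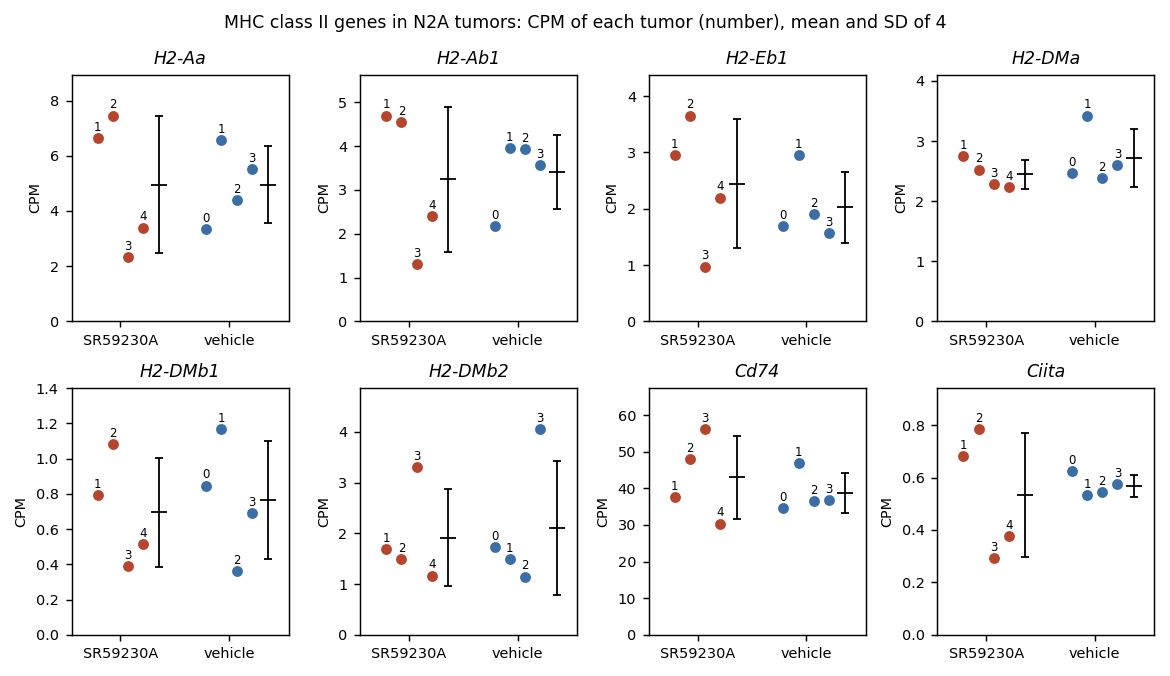
CPM (vertical axis, from 0) of the 8 class II genes in each tumor, SR59230A tumors in red and vehicle tumors in blue, with the tumor number above each point and the mean and SD of 4 tumors in black. The groups overlap in every panel, and SR59230A 3 is the lowest point for H2-Aa, H2-Ab1, H2-Eb1 and Ciita but the highest for Cd74.

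**Figure D2:**
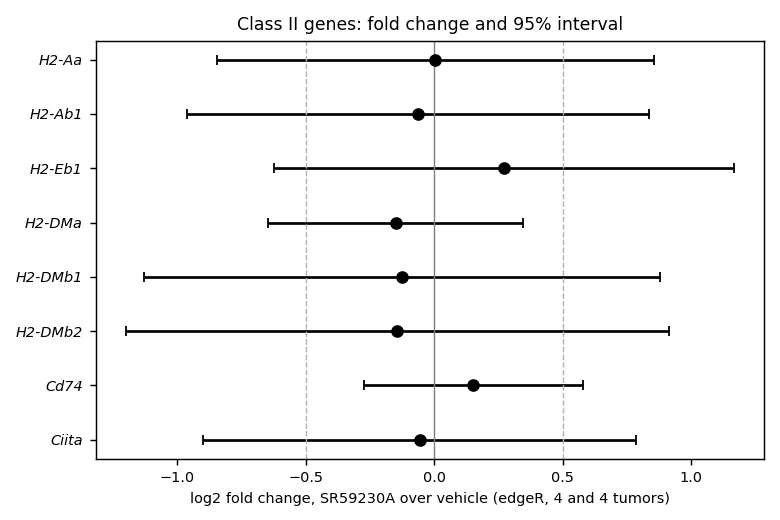
Log2 fold change of each class II gene, SR59230A over vehicle, with its 95% interval from edgeR (points and bars, 4 and 4 tumors), and dashed lines at the threshold of 0.5 on either side of 0. Every interval includes 0, and the narrowest belong to Cd74 (-0.28 to 0.58) and H2-DMa (-0.65 to 0.34).

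The classical chains present peptide at the surface, and H2-Aa is the α chain of I-A. H2-Aa (chr17:34282744-34287823, GRCm38, minus strand) had 6.63, 7.45, 2.34 and 3.40 CPM in SR59230A tumors 1 to 4, and 3.35, 6.56, 4.41 and 5.51 CPM in vehicle tumors 0 to 3. Tumors 1 and 2 of the SR59230A group were higher than any vehicle tumor, and tumor 3 was lower than any, so both ends of the range were treated tumors. The means were 4.95 ± 2.47 CPM in SR59230A tumors and 4.96 ± 1.39 CPM in vehicle tumors (SD, n = 4 each). The log2 fold change was 0.0043 (SE 0.38, 95% interval -0.85 to 0.85, edgeR adjusted p = 1.00).

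H2-Ab1, the β chain of I-A, ordered the tumors in much the same way. H2-Ab1 (chr17:34257689-34269419, plus strand) had 4.69, 4.54, 1.31 and 2.40 CPM in SR59230A tumors 1 to 4, and 2.17, 3.96, 3.92 and 3.56 CPM in vehicle tumors 0 to 3. Again SR59230A 1 and 2 were the highest of the 8 and SR59230A 3 the lowest, with vehicle 0 and SR59230A 4 next above it. The log2 fold change was -0.06 (SE 0.40, 95% interval -0.96 to 0.83, edgeR adjusted p = 0.996).

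For H2-Eb1, the β chain of I-E, the fold change was the farthest from 0 of the 8 but was still inside the spread of the tumors. H2-Eb1 (chr17:34305867-34316674, plus strand) had 2.95, 3.65, 0.97 and 2.20 CPM in SR59230A tumors 1 to 4, and 1.69, 2.95, 1.90 and 1.57 CPM in vehicle tumors 0 to 3. Here 3 of the 4 SR59230A tumors were above 3 of the 4 vehicle tumors, and the remaining treated tumor, number 3, was below all of them. The log2 fold change was 0.27 (SE 0.40, 95% interval -0.62 to 1.17, edgeR adjusted p = 0.996). It was 0.52 without SR59230A 3 and 0.01 without SR59230A 2.

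The 3 classical chains together spanned 4.62 to 15.6 CPM in SR59230A tumors and 7.22 to 13.5 CPM in vehicle tumors, a narrower range inside the other. In a whole tumor, fewer class II cells and less class II RNA per cell cannot be told apart.

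Cd74, the invariant chain, is also a surface receptor for the cytokine MIF, and it was the class II gene with the least uncertain fold change. Cd74 (chr18:60803848-60812652, plus strand) had 37.7, 47.9, 56.2 and 30.4 CPM in SR59230A tumors 1 to 4, and 34.7, 46.9, 36.5 and 36.8 CPM in vehicle tumors 0 to 3. The highest and the lowest tumor were both treated ones, numbers 3 and 4, and the vehicle tumors lay between them. The means were 43.1 ± 11.4 CPM in SR59230A tumors and 38.7 ± 5.53 CPM in vehicle tumors (SD, n = 4 each), and the log2 fold change was 0.15 (SE 0.19, 95% interval -0.28 to 0.58, edgeR adjusted p = 0.996). Without SR59230A 3 it was -0.0063.

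Cd74 and the classical chains parted in SR59230A 3. The ratio of Cd74 TPM to the summed TPM of H2-Aa, H2-Ab1 and H2-Eb1 was 1.99, 2.39, 10.3 and 3.07 in SR59230A tumors 1 to 4, and 3.89, 2.75, 2.57 and 2.53 in vehicle tumors 0 to 3. SR59230A 3 was thus the one tumor with a ratio above 4. Its classical chains, on 95 reads together, were the lowest of the 8 tumors and its Cd74 was the highest by CPM. The library of SR59230A 3 also had the fewest reads and the largest share of Noct. Their part in the ratio was not tested. A retained-intron transcript, Cd74-205, took 8.68% of the Cd74 reads in that tumor, 1.76% in vehicle 1 and none in the other 6. With protein-coding transcripts alone the ratio in SR59230A 3 was 11.4, against 2.45 to 4.14 in the other SR59230A tumors and 3.06 to 5.32 in the vehicle tumors. SR59230A 3 was the lowest of the 8 tumors for 20.4% of all genes tested and the highest for 18.6%, and it was the lowest for 4 of the 8 class II genes and the highest for 1.

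Among the chains that load peptide, H2-DMa varied least of all class II genes. H2-DMa (chr17:34119541-34139101, plus strand), the α chain of H2-DM, had 2.76, 2.53, 2.29 and 2.23 CPM in SR59230A tumors 1 to 4, and 2.47, 3.42, 2.38 and 2.60 CPM in vehicle tumors 0 to 3. Vehicle 1 alone was above the treated tumors, and SR59230A 3 and 4 lay just below the lowest vehicle tumor. The log2 fold change was -0.15 (SE 0.22, 95% interval -0.65 to 0.34, edgeR adjusted p = 0.996). Its SD within groups, 0.190 on the log2 CPM scale, was larger than that of 29.9% of genes tested, while H2-Aa, H2-Ab1, H2-Eb1, H2-DMb1 and H2-DMb2 had an SD of 0.624 to 0.699, larger than that of 85.6% to 88.1% of genes. The median SD was 0.625 over the 8 class II genes and 0.261 over all genes tested.

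The 2 β chains of H2-DM did not share one pattern. H2-DMb1 (chr17:34153072-34160230, plus strand) had 0.79, 1.08, 0.39 and 0.52 CPM in SR59230A tumors 1 to 4, and 0.85, 1.17, 0.36 and 0.69 CPM in vehicle tumors 0 to 3. H2-DMb2 (chr17:34143307-34151555, plus strand) had 1.69, 1.49, 3.31 and 1.17 CPM in SR59230A tumors 1 to 4, and 1.73, 1.5, 1.15 and 4.06 CPM in vehicle tumors 0 to 3. H2-DMb2 was thus high in tumor 3 of both groups, where H2-DMb1 was not. The log2 fold changes were -0.13 for H2-DMb1 (SE 0.45) and -0.14 for H2-DMb2 (SE 0.47), both with an edgeR adjusted p of 0.996, and H2-DMb2 changed sign to 0.38 without vehicle 3 and stood at -0.54 without SR59230A 3. The 2 genes are near copies: their main transcripts, of 1404 and 1424 bases, matched at 93.9% of 1255 aligned bases and shared 517 stretches of 31 bases, 37.6% of those of H2-DMb1. How reads were divided between them is therefore uncertain, and their sum is the safer value. H2-DMb2 took 56.4% to 89.7% of that sum. Summed, they had a log2 fold change of -0.14 (SE 0.37, edgeR adjusted p = 0.996).

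Ciita rested on few reads, 25, 37, 6 and 11 in SR59230A tumors 1 to 4 and 17, 26, 18 and 15 in vehicle tumors 0 to 3. Ciita (chr16:10480059-10528418, plus strand) had 0.68, 0.79, 0.29 and 0.38 CPM in SR59230A tumors, and 0.63, 0.53, 0.54 and 0.57 CPM in vehicle tumors. The vehicle tumors fell together, at 0.57 ± 0.04 CPM, in the gap between the high SR59230A tumors 1 and 2 and the low tumors 3 and 4, at 0.53 ± 0.24 CPM (SD, n = 4 each). The log2 fold change was -0.06 (SE 0.37, 95% interval -0.90 to 0.79, edgeR adjusted p = 0.996). Of the 8 class II genes Ciita alone had both SR59230A 1 and 2 above and both SR59230A 3 and 4 below all vehicle tumors, an order seen in 0.414% of genes tested. Outside the 8, the I-E α chain gene H2-Ea had it too. The order was taken from these same values, so its rarity is no test, and for Ciita it rests on few reads.

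**Figure D3:**
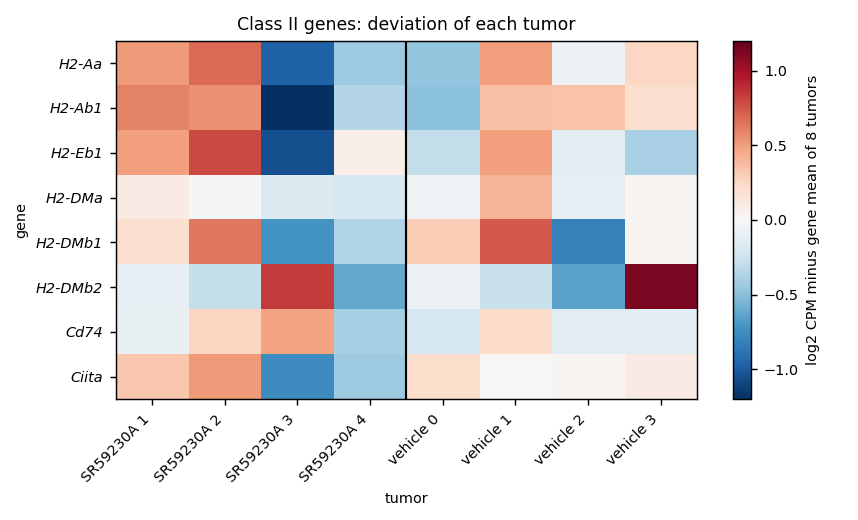
Log2 CPM of each class II gene in each tumor minus the mean of that gene over the 8 tumors (color, red above and blue below the mean), SR59230A tumors left of the black line and vehicle tumors right of it. H2-Aa, H2-Ab1, H2-Eb1 and Ciita are red in SR59230A 1 and 2 and blue in SR59230A 3, while H2-DMb2 is red in tumor 3 of both groups.

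The fold changes depended on which tumors were compared. Tumors 1 and 2 of each group were compared apart from the others because their numbers are also the column heads of a published heat map. No text ties that map to these tumors, and the published text describes duplicates whereas 8 tumors were used here. Between SR59230A 1 and 2 and vehicle 1 and 2, the median log2 fold change was 0.26 for the class II genes and 0.01 for all genes tested. Of the 8 genes 7 were above 0, all but H2-DMa. Between SR59230A 3 and 4 and vehicle 0 and 3 the medians were -0.50 and -0.01, and 1 of 8 genes, Cd74, was above 0. The share of all genes above 0 was not computed for these 2 comparisons. The 8 genes are not independent: over the 8 tumors H2-Aa had Pearson's r of 0.95 with H2-Ab1 and 0.81 with Ciita. Neither comparison called a class II gene by edgeR, each had 2 tumors a group, and the difference between the 2 comparisons was not tested. For Ciita the log2 fold change was 0.45 in the tumors numbered 1 and 2 and -0.83 in the others, for H2-Aa 0.36 and -0.63, and for H2-Ab1 0.23 and -0.62. H2-Eb1 was 0.44 and -0.04, and H2-DMa -0.14 and -0.17. Without SR59230A 1, the tumor with most muscle transcripts, the class II median over the other 7 tumors was -0.17. Leaving SR59230A 1 and 2 out of the full comparison moved the class II median to -0.55, with 2 of 8 genes above 0, beside a median of -0.02 for all genes. In tumors 1 and 2 of both groups together H2-Ab1 alone of the 8 was higher than in all other tumors, as were 8.88% of genes, and none was lower than in all others, as were 8.41% of genes. Tumors 1 and 2 also had the higher scaling factors, and most reads of Gm10800 were in 3 of the other 4. Their part in these values was not tested.

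**Figure D4:**
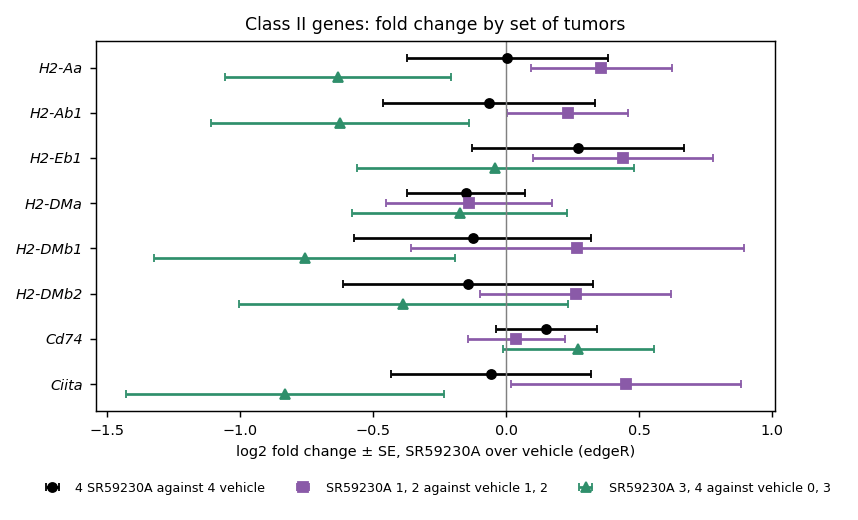
Log2 fold change of each class II gene, SR59230A over vehicle, with its SE from edgeR, in all 8 tumors (circles), in tumors 1 and 2 of each group (squares) and in SR59230A 3 and 4 against vehicle 0 and 3 (triangles). Squares lie right of 0 for 7 genes and triangles left of 0 for 7 genes.

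Most reads of each gene came from 1 transcript, with H2-Eb1 as the exception in kind. H2-Aa-201 held 99.3% of H2-Aa reads over the 8 tumors, H2-DMb2-201 all H2-DMb2 reads, Cd74-201 81.3% of Cd74 reads and H2-Ab1-201 72.3% of H2-Ab1 reads. For H2-Eb1, 72.5% of reads were given to H2-Eb1-205, annotated as a target of nonsense-mediated decay, in shares of 53.9% to 89.6% per tumor. The 2 protein-coding transcripts together took 9.32%, and one of them, H2-Eb1-201, was listed at 0 reads in all 8 tumors. A/J mice carry another H-2 haplotype than the C57BL/6 reference, and whether this moved reads between transcripts was not tested. Nor was it tested whether fewer reads of the H2 genes were assigned for this reason, which would lower their levels beside Cd74. Of H2-DMa reads, 71.3% fell on protein-coding transcripts and 27.5% on processed transcripts. For Ciita, which starts from several promoters in different cell types, 73.8% of reads were given to transcripts that start at chr16:10488178-10488279, 20.0% to those that start upstream of it and 6.12% to those downstream. Ciita-201 was alone in having reads in all 8 tumors, and with 6 to 26 reads per tumor it gave no usable comparison between groups.

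The other class II region genes were not called different either (0 of 4, with 2 tested). H2-Ea, the α chain of I-E, which is disrupted in C57BL/6 and intact in A/J mice, had 2.59, 2.95, 0.68 and 0.82 CPM in SR59230A tumors 1 to 4, and 1.99, 2.32, 2.08 and 1.88 CPM in vehicle tumors 0 to 3. As with Ciita, the vehicle tumors lay in the gap between treated tumors, and the log2 fold change was -0.21 (SE 0.46, edgeR adjusted p = 0.996). H2-Oa, the α chain of H2-DO, which holds H2-DM back, had a log2 fold change of -0.25 (SE 0.36, edgeR adjusted p = 0.996). H2-Ob, its β chain, had 0 to 4 reads per tumor and H2-Eb2 0 to 3, and neither was tested.

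Around the class II genes, 4 further lists were read in the same fit, and no member of any was called different by edgeR. Of the 9 endosomal processing genes, 6 had a log2 fold change above 0 and the median was 0.12. The smallest unadjusted p were those of Ifi30, a thiol reductase that opens disulfide bonds of antigens, at a log2 fold change of 0.25 (SE 0.14), and of Sppl2a, a protease that clears the last piece of Cd74 from the membrane, at 0.15 (SE 0.09), both with an edgeR adjusted p of 0.996. Of the 7 factors at class II promoters, 3 were above 0 and the median was -0.04. Nfyb, a subunit of the NF-Y complex, stood at -0.31 (SE 0.16) and Nfya at -0.09 (SE 0.15), both with an edgeR adjusted p of 0.996. The trimeric RFX complex of the X box (Rfx5, Rfxap and Rfxank) was between -0.09 and 0.10.

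Of 12 genes that induce Ciita or restrain its induction, 11 were tested, 6 were above 0 and the median was 0.02. Ifng, the gene of interferon-γ, was at 0 to 0.08 CPM and was not tested. The receptor chains Ifngr1 and Ifngr2, the kinases Jak1 and Jak2, Irf1 and Socs1 lay between -0.10 and 0.07. Irf4, a factor of activated lymphocytes and of some dendritic cells and macrophages, had a log2 fold change of 1.84 (SE 0.77, unadjusted p = 0.04, edgeR adjusted p = 0.996). Its values were 0.35, 0.21, 2.58 and 0.76 CPM in SR59230A tumors 1 to 4, and 0.26, 0.23, 0.15 and 0.42 CPM in vehicle tumors 0 to 3, so SR59230A 3 carried most of it. Spi1, the myeloid factor PU.1, followed at 0.38 (SE 0.23, edgeR adjusted p = 0.996).

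Of the 7 partners of class II and Cd74, 2 were above 0 and the median was -0.27. Cd4, the coreceptor that binds class II, was at -0.97 (SE 0.54, edgeR adjusted p = 0.996), with 0.27, 0.34, 0.05 and 0.14 CPM in SR59230A tumors 1 to 4, against 0.26, 0.68, 0.33 and 0.38 CPM in vehicle tumors 0 to 3. Lag3, an inhibitory receptor of T cells that also binds class II, was at -0.50 (SE 0.32, edgeR adjusted p = 0.996). The groups overlapped for both genes.

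Markers of the cells that carry class II were summed in each tumor. The 10 macrophage markers, all tested, summed to 358, 343, 546 and 419 CPM in SR59230A tumors 1 to 4, and to 225, 299, 263 and 533 CPM in vehicle tumors 0 to 3. Both tumors numbered 3 were the highest, mostly through Mrc1, a mannose receptor, while H2-Aa, H2-Ab1 and H2-Eb1 were lowest in SR59230A 3. Of the 10 markers 9 had a log2 fold change above 0, with a median of 0.32. The exception, the Fc receptor gene Fcgr1, stood at -0.50 (SE 0.26, edgeR adjusted p = 0.996), and its groups did not overlap, with 1.37 to 2.00 CPM in SR59230A tumors and 2.06 to 3.37 CPM in vehicle tumors. Without Mrc1 the macrophage sums were 75.8 to 147 CPM in SR59230A tumors and 69.0 to 105 CPM in vehicle tumors. The C1q chains were highest in SR59230A 1 and 2, as H2-Ab1 was: C1qa had 32.4, 31.4, 21.4 and 13.6 CPM in SR59230A tumors 1 to 4, and 11.9, 21.7, 20.4 and 15.3 CPM in vehicle tumors 0 to 3. Adgre1 and Csf1r were also highest in these treated tumors. The rest of the list was not: Cd14 and Mertk were highest in SR59230A 3, and Cd68, Fcgr1 and Mrc1 in vehicle 3. The 10 dendritic cell markers, 8 of them tested, summed to 36.3 to 54.4 CPM in SR59230A tumors and to 33.7 to 40.4 CPM in vehicle tumors, with the highest sum again in SR59230A 3. Of the 8 tested, 4 had a log2 fold change above 0, and the median was -0.02. The one with the smallest p, Clec10a, a lectin of dendritic cells and macrophages, had 3.6, 6.92, 23.4 and 17.1 CPM in SR59230A tumors 1 to 4, and 1.84, 4.28, 3.23 and 4.56 CPM in vehicle tumors 0 to 3. Without Clec10a the dendritic cell sums were 24.9 to 33.5 CPM in SR59230A tumors and 30.5 to 35.9 CPM in vehicle tumors, and SR59230A 3 was no longer the highest. Zbtb46 alone made up most of each of these sums, at 19.9 to 26.3 CPM per tumor, so they say little of the other markers. Siglech (-1.49, SE 0.81), Itgax (-0.86, SE 0.54), Xcr1 (-0.48, SE 0.44) and Ccr7 (-0.05, SE 0.32) had log2 fold changes below 0. Cd209a (0.76, SE 0.48), Batf3 (0.24, SE 0.40) and Zbtb46 (0.01, SE 0.11) were above 0, as was Clec10a. Siglech was highest in vehicle 3, at 3.52 CPM, and Clec9a had at most 0.15 CPM. The 6 B cell markers, 4 of them tested, summed to 8.15 to 11.7 CPM in SR59230A tumors and to 7.43 to 13.7 CPM in vehicle tumors, with 2 of the 4 above 0. None of these markers was called by edgeR, and DESeq2 called Clec10a alone, at a log2 fold change of 1.86 (SE 0.47, DESeq2 adjusted p = 0.0473). The part of cell numbers in the class II values was not tested.

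**Figure D5:**
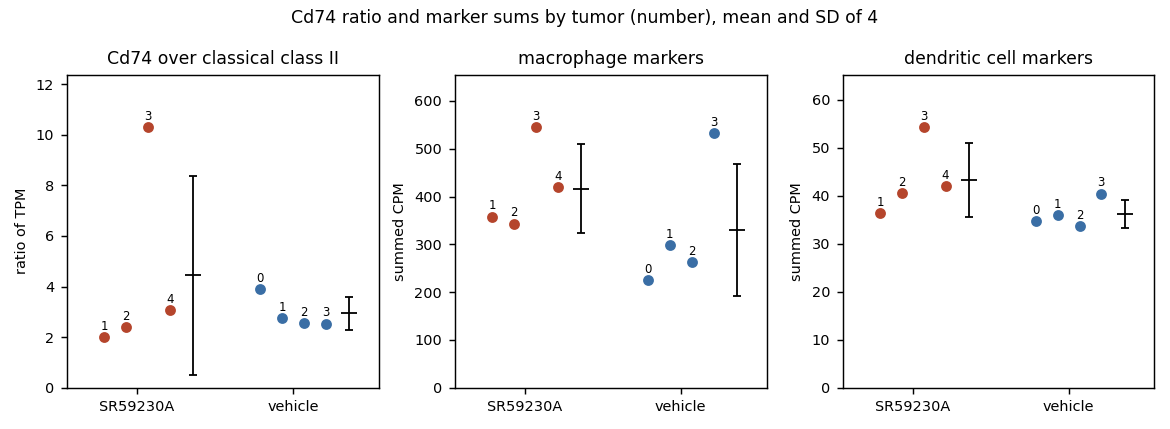
Ratio of Cd74 TPM to the summed TPM of H2-Aa, H2-Ab1 and H2-Eb1 (left), and summed CPM of the macrophage markers (middle) and dendritic cell markers (right), in each tumor (number above the point), SR59230A tumors in red and vehicle tumors in blue, with the mean and SD of 4 tumors in black. SR59230A 3 is the highest point in all panels, at a ratio of 10.3 in the left one.

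To see which genes followed the class II mean from tumor to tumor, each protein-coding gene tested was compared with the mean standardized log2 CPM of the 8 members. The members did not all move together. H2-Aa had Pearson's r of 0.95 with H2-Ab1, 0.85 with H2-Eb1 and 0.81 with Ciita. With H2-Aa, H2-Ab1 and H2-Eb1, r was 0.02, -0.19 and -0.12 for Cd74 and -0.21, -0.37 and -0.62 for H2-DMb2. By rank (Spearman's rho) the values were 0.29, 0.21 and 0.12 for Cd74 and -0.24, -0.36 and -0.60 for H2-DMb2. SR59230A 3 was the lowest tumor for these 3 chains and the highest for Cd74 by CPM. Correlations without that tumor were not computed, so how Cd74 moved in the others was not tested. The 10 closest of 14356 genes had Pearson's r between 0.874 and 0.922 over the 8 tumors, given as a description since depth and cell content are shared by all genes of a tumor. They were Cd300c2, Slc37a2, Klf8, Gpr34, Otub2, Hvcn1, Mpeg1, Apobec1, Vcam1 and Cd180. Several are known from myeloid or B cells: Mpeg1 encodes perforin-2 of macrophages, Gpr34 a lysophospholipid receptor of microglia and macrophages, and Cd180 a Toll-like receptor homolog of B cells and myeloid cells. Mpeg1 had 14.7, 19.6, 6.76 and 7.28 CPM in SR59230A tumors 1 to 4, and 14.1, 18.6, 13.3 and 18.5 CPM in vehicle tumors 0 to 3. SR59230A 3 was its lowest tumor and SR59230A 2 its highest, a likeness to the class II mean for which it was picked. Cd74, in contrast, was highest in SR59230A 3 by CPM. By TPM, SR59230A 2 (70.9 TPM) and vehicle 1 (68.6 TPM) were above SR59230A 3 (66.2 TPM) for Cd74.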

How the data were processed

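Total RNA of the 8 tumors had been made into TruSeq Stranded Total RNA Gold libraries and, per the methods, quantified by the authors with Salmon in mapping mode. The authors deposited, for each tumor, estimated counts, TPM and effective lengths (bases, another measure) per transcript. They also deposited DESeq2 normalized counts, a signal scaled between libraries, for 15035 gene symbols, which hold 2 of the 8 class II genes (H2-Ab1 and H2-DMb1). The methods name a GRCm38 transcriptome, whereas GRCm39 stands in the submitters' processing notes. Identifiers without version matched 115685 of 116747 transcripts (99.1%) to GENCODE M21 of GRCm38, and 0.35% to 0.45% of reads were left out as unmatched. Coordinates are those of GENCODE M21, and promoters those of RefSeq on GRCm38.p6.

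Gene totals of the estimated counts were rounded to whole numbers, and H2-DMb1 and H2-DMb2 can share reads. The main comparison used edgeR 4.0.16 (R 4.3.3) with its default filter for low counts, TMM factors and the quasi-likelihood test, with p-values adjusted by Benjamini and Hochberg's method over all 15207 genes. A call needed an adjusted p below 0.05 and a log2 fold change of 0.5 or more in either direction. The SE is the fold change over the root of the F statistic. Alternatives used DESeq2 1.42.0, limma 3.58.1 on log2(TPM + 0.1), log2(TPM + 1) and the deposited normalized counts, other scaling factors and filters, transcript length offsets, the replicate number as a block, sets of tumors and the omission of each tumor. The comparison of SR59230A 3 and 4 with vehicle 0 and 3, that of tumors 1 to 3 without a block and the block by tumor set were chosen after the data had been seen. On simulated counts of this comparison (15207 genes, 50 changed at each size), edgeR found 32% of genes changed by 0.75 on the log2 scale, 58% of those changed by 1, 90% by 2 and 100% by 3, with 8 unchanged genes called. The simulation gave each gene the spread usual for its level, and no differences in content between libraries. These shares are therefore not those of any single class II gene, and may be too high for genes with a larger spread.

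The class II genes are the 8 given by symbol, and every one is described. In each of the 5 lists of related genes (class II region, endosomal processing, promoter binding, Ciita induction and partners, but not the marker lists) the 2 tested genes with the smallest unadjusted p are given, and 10 protein-coding genes were named by correlation with the class II mean. The members and the lists were chosen with earlier results of these data known. Other genes with values (C1qa, Mrc1, Fcgr1, Clec10a, Clec9a, Siglech, Itgax, Xcr1, Ccr7, Cd209a, Batf3 and Zbtb46), and the sums without Mrc1 or Clec10a, were chosen after their values had been seen. So was the order of tumors whose share of genes is given with Ciita. Some items are not reported here.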

Additional observations from a re-analysis of the deposited data

Results flagged for a closer look

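Within each group of 4 tumors, values were examined for a tumor far from the other 3, in 56 sets of 4, where chance alone gives about 1 in 20, and 5 were found. Cd74 had 46.9 CPM in vehicle 1, against 34.7 to 36.8 CPM in the other vehicle tumors. The ratio of Cd74 TPM to the summed TPM of H2-Aa, H2-Ab1 and H2-Eb1 was 10.3 in SR59230A 3, against 1.99 to 3.07 in the other SR59230A tumors. The same ratio was 3.89 in vehicle 0, against 2.53 to 2.75 in the other vehicle tumors. From CPM in place of TPM, the ratio was 12.2 in SR59230A 3, against 2.64 to 3.8 in the other SR59230A tumors, and 4.81 in vehicle 0, against 3.45 to 3.57 in the other vehicle tumors. Ratios from CPM and TPM rest on the same reads.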

How the results depend on the processing

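Under 24 alternatives no class II gene was called, and the smallest adjusted p was 0.622, that of H2-DMb2 by edgeR without vehicle 0, vehicle 3 and SR59230A 4. Of 188 fold changes of single class II genes, 146 kept their direction and 42 changed it, and each of the 8 fold changes over all tumors was within 1 SE of 0. Over all genes, 37 were called with DESeq2, 2 with the replicate block in tumors 1 to 3, 1 in the same tumors without the block, 5 in SR59230A 3 and 4 against vehicle 0 and 3, and 0 to 1 when a tumor was left out (1 without SR59230A 4).

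With other processing, log2 fold changes of the opposite sign were -0.0049 for H2-Aa with RLE factors, 0.014 for H2-DMa with transcript length offsets, -0.012 for H2-Aa, 0.046 for H2-DMa and 0.0068 for H2-DMb2 with limma on log2(TPM + 0.1), and 0.038 for H2-DMa, 0.015 for H2-DMb2 and 0.0052 for Ciita with limma on log2(TPM + 1). With the replicate block in tumors 1 to 3 they were -0.11 for H2-Aa, 0.076 for H2-DMb1, 0.083 for H2-DMb2 and 0.070 for Ciita, with a class II median of 0.07, and without the block in these tumors -0.0027 for H2-Aa, 0.036 for H2-DMb1 and 0.12 for Ciita. Tumors with the same number deviated from their group means with correlations of 0.01, 0.63 and 0.53 for numbers 1, 2 and 3, so the numbers were not taken to pair them, and SR59230A 2 correlated as well with vehicle 1 as with vehicle 2. With the block by tumor set H2-Aa stood at -0.11.

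In tumors 1 and 2 of each group the opposite sign was found for H2-Ab1 (0.23), H2-DMb1 (0.27), H2-DMb2 (0.26) and Ciita (0.45). Without vehicle 0, vehicle 3 and SR59230A 4 it was found for H2-DMb2 (0.71) and Ciita (0.17), without SR59230A 1 and 2 for H2-Aa (-0.79), H2-Eb1 (-0.35) and H2-DMb2 (0.085), and in SR59230A 3 and 4 against vehicle 0 and 3 for H2-Aa (-0.63) and H2-Eb1 (-0.040). With each tumor left out in turn, log2 fold changes ran from -0.26 to 0.23 for H2-Aa, -0.29 to 0.19 for H2-Ab1, 0.01 to 0.52 for H2-Eb1, -0.21 to -0.02 for H2-DMa, -0.43 to 0.17 for H2-DMb1, -0.54 to 0.38 for H2-DMb2, -0.0063 to 0.29 for Cd74 and -0.31 to 0.12 for Ciita, and their median from -0.21 to 0.09. The cause of these changes was not tested. Depth limits Ciita, at 6 to 37 reads per tumor, and left H2-Ob and H2-Eb2 untested, and the design of 4 against 4 leaves intervals that reach a log2 fold change of 0.58 or more upward for all class II genes but H2-DMa.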
